A study of Homo sapiens with 12 samples.

Results

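The genes described here are 9 kinases and partners of the DNA damage checkpoint: the apical kinases ATM, ATR and PRKDC, the sensors and activators ATRIP, TOPBP1 and RAD17, and the effector kinases CHEK1, CHEK2 and WEE1. They were taken by name from the 43828 gene places in the tables, and the rule used no measured value. The choice was made with earlier results of these data known, so it was not independent of them. All 9 passed the filter on low counts, among 23546 genes tested in exon reads and 19908 tested in intron reads. RNA was sequenced from CCRF-CEM cells, an established human T lymphoblast leukemia line. The parent cells, labelled wild-type, express SLFN11, a putative helicase that blocks stressed replication forks, and the other cells are labelled SLFN11 knockout. Each genotype was treated with camptothecin at 100 nM for 4 h or with its solvent DMSO, which gave 4 groups of 3 libraries: parent DMSO, parent camptothecin, knockout DMSO and knockout camptothecin. The sources used here give neither the method of the knockout, nor its clonal origin, nor whether replicates were separate cultures. P-values therefore rest on the spread among libraries alone, and that spread may be technical.

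Camptothecin holds topoisomerase I on the DNA it has nicked, and replication forks that run into the held enzyme can break. ATR, bound to its partner ATRIP, is recruited to single-stranded DNA at stalled forks, where RAD17 loads a ring-shaped clamp and TOPBP1 switches the kinase on. ATM and the DNA-dependent protein kinase encoded by PRKDC are recruited to broken ends, ATM by the MRN complex and PRKDC by the Ku proteins. ATR chiefly activates CHEK1 and ATM chiefly activates CHEK2, and WEE1 holds back mitosis by phosphorylating CDK1. These proteins act largely through phosphorylation, which RNA levels do not measure.

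Levels are given as CPM (exon read counts relative to the library total), scaled by the trimmed mean of M-values, and changes as log2 differences with their standard error (SE). Exon reads per library ran from 42439957 to 63606344 in 11 libraries and reached 135592046 in parent DMSO replicate 1. This library stood apart: its counts differed from those of its fellow replicates by a chi-square of 152.8 to 193.4 per degree of freedom, against 4.98 to 18.8 in all other pairs within a group. Values without it are given wherever it decides a call. SLFN11 itself had 107.4 to 117.3 CPM in parent DMSO cells and 85.9 to 88.7 CPM in knockout DMSO cells, so its RNA persisted in cells labelled knockout. Between these groups its exon reads were lower in the knockout (-0.37 ± 0.05 SE, edgeR adjusted p = 0.000133). Its intron reads were higher there (0.58 ± 0.07, edgeR adjusted p = 9.43e-07). All 11 T lymphoblast markers exceeded 1 CPM on average, and their summed level was 1293 to 1305 CPM in parent camptothecin, 1596 to 1732 in parent DMSO, 1627 to 1661 in knockout camptothecin and 1894 to 1902 in knockout DMSO libraries. Myeloid markers summed to at most 1.06 CPM and erythroid markers to at most 0.567 CPM in any library, B lineage markers to 26.2 to 45.5 CPM, and epithelial and fibroblast markers to 1.94 to 2.71 CPM in parent DMSO and 7.92 to 8.17 CPM in knockout DMSO libraries. The part of these differences in the values below was not tested. In such bulk samples, fewer expressing cells and less RNA per cell cannot be told apart.

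The first question was what camptothecin did to these RNAs in parent cells. Of the 9 genes, 2 rose (ATRIP and CHEK1) and 5 fell (ATM, ATR, PRKDC, RAD17 and CHEK2) in exon reads at an edgeR quasi-likelihood adjusted p below 0.05, while TOPBP1 and WEE1 did not pass. Among all genes tested, 16.8% were called higher and 17.1% lower. The median change of the 9 genes was -0.21 and that of all genes 0.01. In knockout cells ATM, PRKDC and CHEK2 fell and none of the 9 passed as higher, where 9.28% of all genes were called lower and 7.3% higher; 2 of the 9 were higher at an unadjusted p below 0.05, and DESeq2 called 1 of them. Scaled by library size alone, the split in knockout cells was 2 higher (ATRIP 0.37, adjusted p = 0.00394; CHEK1 0.31, adjusted p = 0.000472) and 1 lower (ATM). On that scale 4693 of 23546 genes were called higher and 1274 lower. On the main scale, the median change in knockout cells was -0.14 for the 9 genes and 0.02 for all genes. Treated and untreated knockout libraries did not overlap in exon reads for any of the 9 genes, including the 6 that did not pass. The share of all genes without such overlap was not counted, so absence of overlap is given below only as a description.

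**Figure D1:**
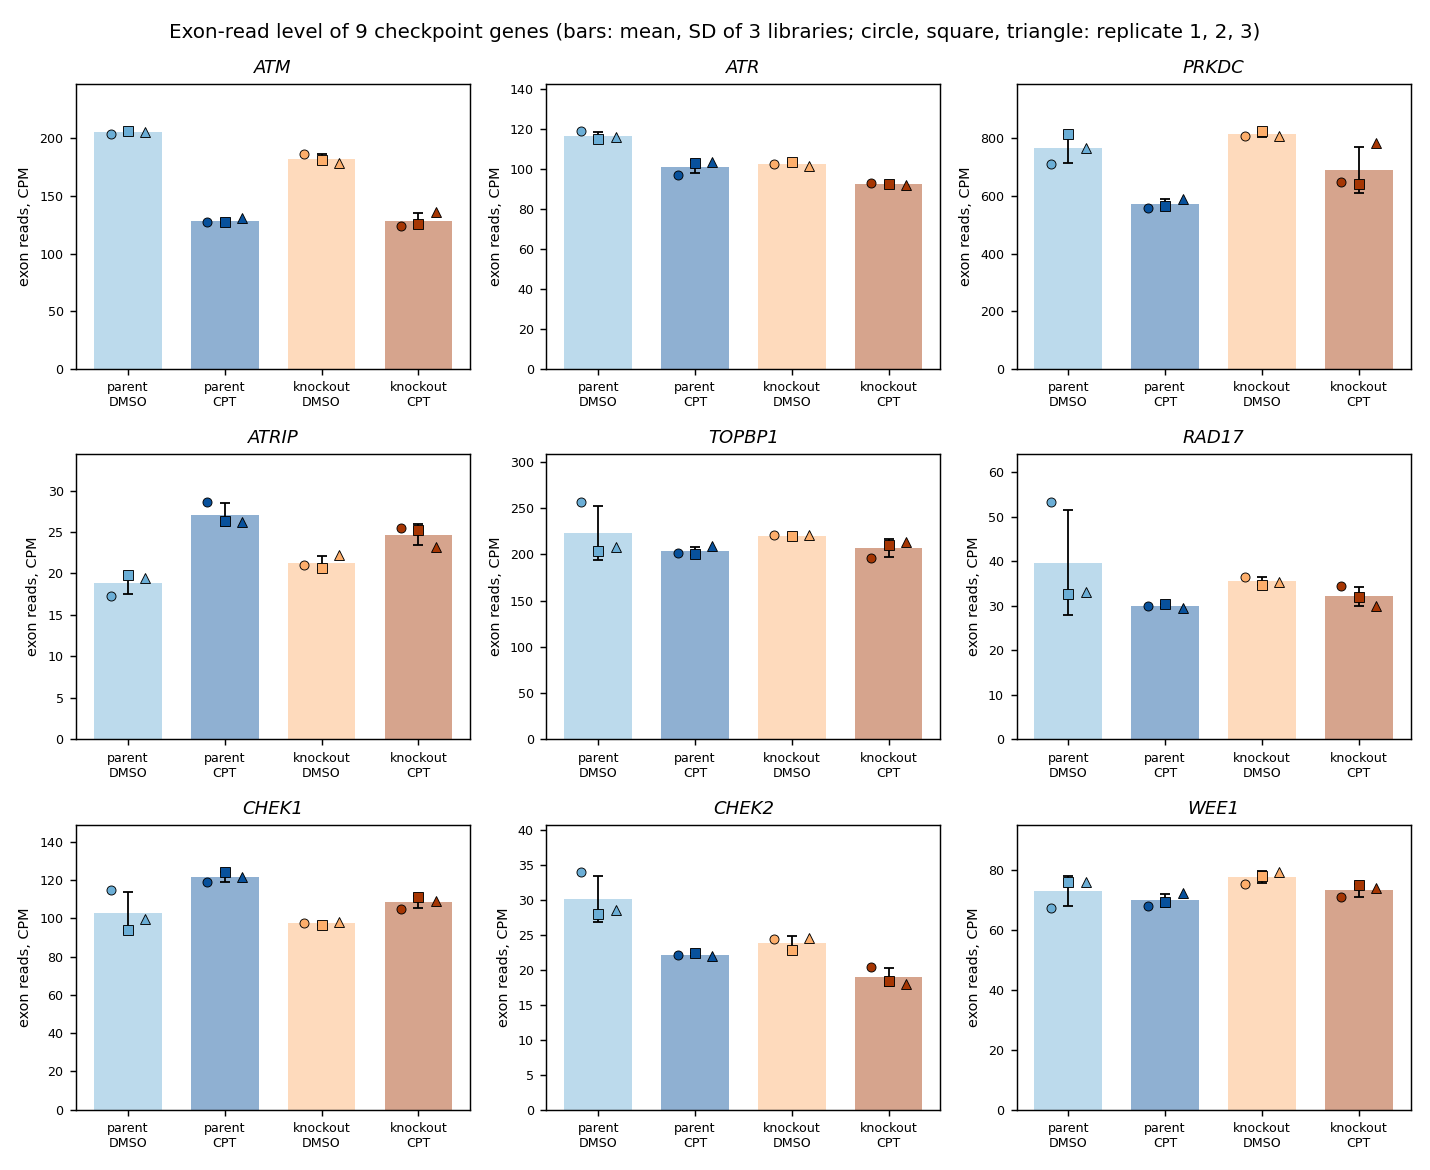
Exon-read level in CPM (y axis, from 0) of the 9 genes in the 4 groups (x axis; CPT is camptothecin). Bars are means of 3 libraries with the SD, and symbols are single libraries. ATM lies at 203.5 to 206.2 in parent DMSO and at 127.0 to 130.5 in parent camptothecin libraries, and parent DMSO replicate 1 (circle) stands far above its fellows for RAD17 and TOPBP1.

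ATM, the kinase that responds to double-strand breaks (hg19, chromosome 11, 108093210 to 108239828), had 203.5, 206.2 and 205.8 CPM in parent DMSO libraries and 127.0, 127.7 and 130.5 CPM after camptothecin. In knockout cells it had 186.5, 181.1 and 178.2 CPM in DMSO and 123.8, 125.7 and 136.4 CPM after camptothecin. Treated and untreated libraries did not overlap in either genotype, and the treated libraries of both genotypes overlapped each other. ATM fell 1.60-fold in parent cells (log2 change -0.68 ± 0.06 SE; edgeR adjusted p = 8.58e-08) and 1.42-fold in knockout cells (-0.50 ± 0.06; edgeR adjusted p = 6.75e-06). Both calls were kept without each of the 12 libraries in turn. ATM shares its place with NPAT and C11orf65, and 60.5% of its exon reads lay where no other gene is annotated. On those reads alone ATM fell by 0.59 in parent and by 0.41 in knockout cells on the log2 scale.

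ATR, the kinase of stalled forks (chromosome 3, 142168076 to 142297667), had 118.7, 114.6 and 116.0 CPM in parent DMSO libraries and 97.0, 102.6 and 103.1 CPM after camptothecin. Knockout libraries had 102.3, 103.2 and 101.3 CPM in DMSO and 92.7, 92.1 and 91.6 CPM after camptothecin. Treated libraries lay below untreated ones in both genotypes without overlap. ATR fell 1.15-fold in parent cells (-0.21 ± 0.05 SE; edgeR adjusted p = 0.00525), and its change of -0.15 ± 0.05 in knockout cells did not pass (edgeR adjusted p = 0.0613; 0.00395 without parent DMSO replicate 1). The parent call was lost when libraries were scaled by their size alone (-0.08, adjusted p = 0.235) and when exon and intron reads were counted together (-0.13, adjusted p = 0.079).

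PRKDC, the catalytic subunit that joins Ku at broken ends (chromosome 8, 48685668 to 48872742), had the most exon reads per kilobase of exon among the 9 genes. It had 712.7, 815.2 and 767.9 CPM in parent DMSO libraries and 559.3, 566.1 and 591.0 CPM after camptothecin. In knockout cells the values were 807.1, 825.0 and 808.1 CPM in DMSO and 646.8, 640.8 and 783.1 CPM after camptothecin. PRKDC fell 1.34-fold in parent cells (-0.42 ± 0.08 SE; edgeR adjusted p = 0.000463), and the groups did not overlap. Its fall in knockout cells was close to the threshold (-0.24 ± 0.08; edgeR adjusted p = 0.0474). Knockout camptothecin replicate 3, the library with the largest intron share (33.6%), was the high one of its group: without it the value was -0.34 (adjusted p = 0.00322). The knockout call was lost in 9 of the 12 fits that left out 1 library, and with library size alone the value was -0.08 (adjusted p = 0.559).

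ATRIP, which tethers ATR to coated single-stranded DNA (chromosome 3, 48488113 to 48507114), moved opposite to its kinase. It had 17.3, 19.8 and 19.4 CPM in parent DMSO libraries and 28.7, 26.3 and 26.2 CPM after camptothecin. The knockout values were 21.0, 20.6 and 22.3 CPM in DMSO and 25.5, 25.3 and 23.3 CPM after camptothecin. ATRIP rose 1.44-fold in parent cells (0.53 ± 0.07 SE; edgeR adjusted p = 3.57e-05), a call kept without each of the 12 libraries in turn. In knockout cells all treated libraries lay above the untreated ones, but the change of 0.21 ± 0.08 did not pass (edgeR adjusted p = 0.0633; 0.00688 without parent DMSO replicate 1). ATRIP overlaps the exonuclease gene TREX1, and on the exon reads of ATRIP alone its change was 0.51 in parent cells (adjusted p = 5.92e-05). The knockout change passed on those reads (0.24, adjusted p = 0.0359).

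RAD17, the loader of the checkpoint clamp (chromosome 5, 68665119 to 68710627), had 53.3, 32.6 and 33.1 CPM in parent DMSO libraries and 29.9, 30.3 and 29.5 CPM after camptothecin. The fall of 0.42 ± 0.15 on the log2 scale passed narrowly (edgeR adjusted p = 0.0462). It rested on parent DMSO replicate 1: without that library the change was -0.13 (adjusted p = 0.088), and the call was kept in 2 of the 12 fits that left out 1 library. RAD17 has related copies elsewhere in the genome, so its counts are uncertain. TOPBP1, the activator of ATR (chromosome 3, 133317018 to 133380736), had 256.9, 203.7 and 208.2 CPM in parent DMSO and 200.2 to 208.8 CPM in parent camptothecin libraries. Its changes of -0.13 ± 0.08 with the parent (adjusted p = 0.208, edgeR) and -0.09 ± 0.08 with the knockout (adjusted p = 0.487, edgeR) did not pass, and the same deep library was its high value.

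CHEK1, the effector kinase downstream of ATR (chromosome 11, 125495035 to 125546149), had 114.6, 93.9 and 99.9 CPM in parent DMSO libraries and 118.9, 124.1 and 121.6 CPM after camptothecin. In knockout cells it had 97.5, 96.4 and 98.1 CPM in DMSO and 105.1, 110.9 and 109.1 CPM after camptothecin. Treated libraries lay above untreated ones in both genotypes. CHEK1 rose 1.18-fold in parent cells (0.24 ± 0.07 SE; edgeR adjusted p = 0.01), and its change of 0.16 ± 0.07 in knockout cells did not pass (edgeR adjusted p = 0.137). Without parent DMSO replicate 1 the parent change was 0.33 (adjusted p = 3.2e-07) and the knockout change passed (0.16, adjusted p = 0.00197). Without parent DMSO replicate 2 the parent call was lost (0.18, adjusted p = 0.0664).

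CHEK2, the effector kinase downstream of ATM (chromosome 22, 29083730 to 29138409), had 34.0, 28.1 and 28.5 CPM in parent DMSO libraries and 22.1, 22.5 and 22.0 CPM after camptothecin. In knockout cells it had 24.4, 22.8 and 24.5 CPM in DMSO and 20.5, 18.5 and 18.1 CPM after camptothecin. No treated library reached an untreated one of its genotype. CHEK2 fell 1.36-fold in parent cells (-0.45 ± 0.08 SE; edgeR adjusted p = 0.000349) and 1.26-fold in knockout cells (-0.33 ± 0.08; edgeR adjusted p = 0.00972). Both calls were kept without each of the 12 libraries in turn, and the knockout call was lost with library size alone (-0.18, adjusted p = 0.0663). CHEK2 has processed and partial copies in the genome, so its counts are uncertain. WEE1, the kinase that restrains CDK1 (chromosome 11, 9595227 to 9615003), had 67.0 to 75.8 CPM in parent DMSO and 67.9 to 72.1 CPM in parent camptothecin libraries, which overlapped. Its exon change was -0.06 ± 0.06 in parent cells (edgeR adjusted p = 0.486; -0.12 and 0.0463 without parent DMSO replicate 1). The knockout value of -0.08 ± 0.06 also missed the threshold (edgeR adjusted p = 0.432).

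**Figure D2:**
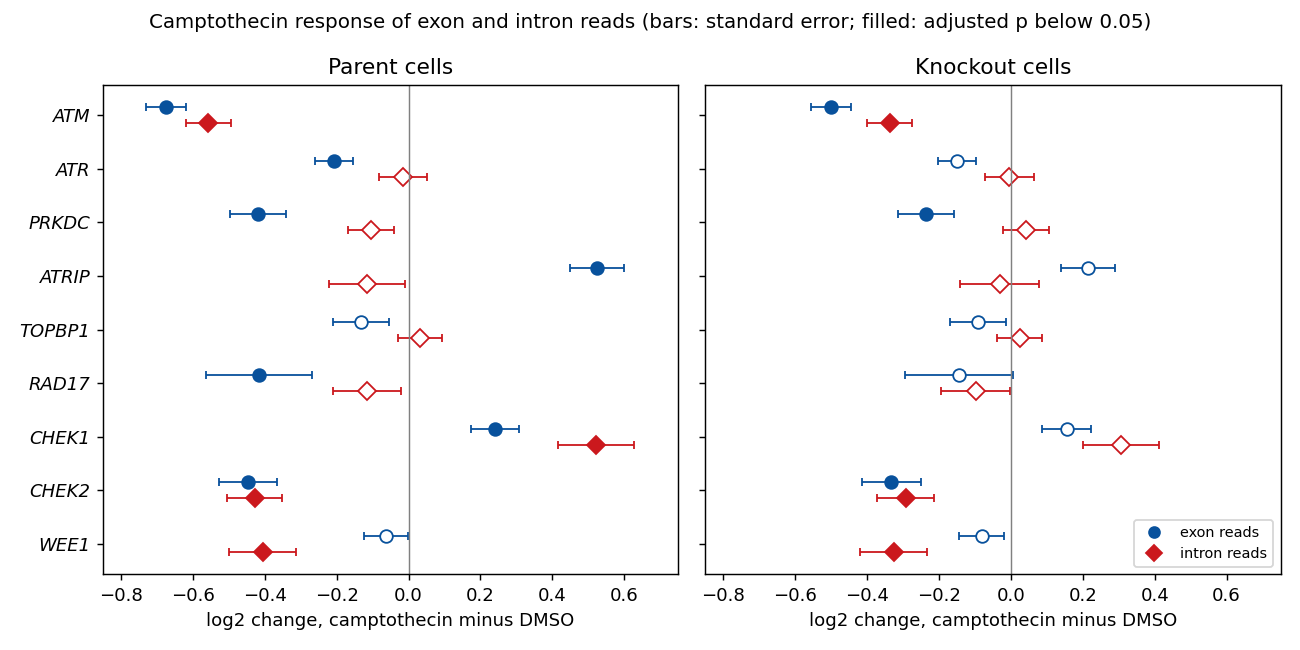
Log2 change after camptothecin (x axis) of exon reads (circles) and intron reads (diamonds) for the 9 genes, in parent cells (left) and knockout cells (right). Bars are standard errors and filled symbols passed at an adjusted p below 0.05. ATM and CHEK2 lie left of 0 and CHEK1 right of 0 in both kinds of read, while ATRIP in parent cells has an exon change of 0.53 and an intron change of -0.12.

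Intron reads come mostly from RNA that is not yet spliced, and they were tested with their own scale. In parent cells CHEK1 rose and ATM, CHEK2 and WEE1 fell in intron reads, against 12.1% of genes called higher and 14.2% called lower. ATM had 175.4, 173.6 and 182.4 intron CPM in DMSO and 118.8, 119.4 and 123.0 after camptothecin (-0.56 ± 0.06 SE; edgeR adjusted p = 6.62e-07). CHEK1 had 68.8, 94.2 and 96.9 intron CPM in DMSO and 124.7, 117.2 and 129.8 after camptothecin (0.52 ± 0.11; edgeR adjusted p = 0.000991), and parent DMSO replicate 1 was its low value. Without that library the CHEK1 intron change was 0.37 (adjusted p = 0.000293). CHEK2 fell by 0.43 ± 0.08 (edgeR adjusted p = 0.000208) and WEE1 by 0.41 ± 0.09 (edgeR adjusted p = 0.00216), WEE1 from 32.9, 33.8 and 28.6 to 23.0, 23.8 and 25.3 intron CPM. The treated and untreated libraries of these 4 genes did not overlap, and the share of all genes for which this held was not counted. ATR, PRKDC, ATRIP, TOPBP1 and RAD17 did not pass, with intron changes from -0.12 to 0.03.

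In knockout cells ATM (-0.34 ± 0.06 SE; edgeR adjusted p = 0.000656), CHEK2 (-0.29 ± 0.08; edgeR adjusted p = 0.0119) and WEE1 (-0.33 ± 0.09; edgeR adjusted p = 0.018) fell in intron reads, where 9.05% of genes were called lower. CHEK1 had a change of 0.31 ± 0.11 that did not pass (edgeR adjusted p = 0.0524; 0.00095 without parent DMSO replicate 1). On intron reads that no other gene overlaps, the CHEK1 change passed (0.29, adjusted p = 0.0304). On the exon scale instead of the intron scale, which shifted the median of all genes in this comparison from 0.01 to 0.10, the falls of ATM, CHEK2 and WEE1 no longer passed (-0.24, -0.20 and -0.23; adjusted p = 0.0962, 0.171 and 0.145). The parent calls of these 4 genes kept their side of the threshold on that scale.

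For the 3 genes whose exon and intron reads were called in the same direction in parent cells, ATM, CHEK1 and CHEK2, the bases before the start site are shown, from RefSeq on GRCh38.p14, a different build from the hg19 places above. Each is the first window listed for the gene, 250 bases on the gene's own strand, 5′ to 3′, with capitals marking each match to the NF-Y motif CCAAT on either strand (ATTGG is its reverse complement).
ATM (chr11:108222817-108223066, plus strand): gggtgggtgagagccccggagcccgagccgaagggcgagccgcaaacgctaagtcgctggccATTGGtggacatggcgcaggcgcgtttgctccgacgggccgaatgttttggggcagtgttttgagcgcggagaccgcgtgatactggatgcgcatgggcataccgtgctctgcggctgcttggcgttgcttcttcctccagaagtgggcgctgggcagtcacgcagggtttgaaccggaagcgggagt
CHEK1 (chr11:125625979-125626228, plus strand): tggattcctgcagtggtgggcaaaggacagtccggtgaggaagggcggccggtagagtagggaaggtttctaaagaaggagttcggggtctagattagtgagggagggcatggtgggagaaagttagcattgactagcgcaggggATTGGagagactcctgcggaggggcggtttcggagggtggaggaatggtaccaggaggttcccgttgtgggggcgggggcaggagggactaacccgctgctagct
CHEK2 (chr22:28741821-28742070, minus strand): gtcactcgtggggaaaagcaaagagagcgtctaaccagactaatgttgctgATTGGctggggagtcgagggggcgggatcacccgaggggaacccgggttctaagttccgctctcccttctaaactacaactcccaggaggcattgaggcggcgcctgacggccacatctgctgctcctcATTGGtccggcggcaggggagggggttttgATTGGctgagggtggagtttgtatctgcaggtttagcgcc
The ATM match begins 188 bases and the CHEK1 match 105 bases before the start site, and the 3 CHEK2 matches begin 199, 70 and 40 bases before it.

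Windows of 300 bases, 250 before and 50 after a start site, were searched on both strands, 13 windows for 7 of the 9 genes. PRKDC was left out of this search, and no window was listed for WEE1. CCAAT was found in 34.6% of the 35116 windows of all genes, so a single match is common. Among the 7 genes searched it was also matched in both windows of ATRIP and in 2 of the 3 windows of RAD17, and in none of ATR and TOPBP1. The E2F motif TTTNNCGC, found in 6.89% of windows, had 1 match each in CHEK2 and TOPBP1 and none in the windows of ATM, ATR, ATRIP, RAD17 and CHEK1. The cell cycle element TTTGAA (15.2% of windows) was matched in windows of ATM and RAD17. The CRE core TGACG (24.6%) was matched in windows of ATR, ATRIP, TOPBP1 and CHEK2. The AP-1 motif TGANTCA (7.71%) had no match in the 13 windows.

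The change in intron reads relative to the change in exon reads was then tested within 1 model over both kinds of read. In parent cells PRKDC passed as higher and ATRIP and WEE1 as lower, against 10.2% and 8.71% of the 17351 genes tested. The exon reads per intron read given below are ratios of unscaled counts, while the test scaled exon and intron reads separately. Intron reads made up 26.3% (parent DMSO replicate 1) to 33.6% (knockout camptothecin replicate 3) of exon plus intron reads, which also moves these ratios. ATRIP gave 1.43, 1.47 and 1.44 exon reads per intron read in parent DMSO libraries and 2.06, 2.21 and 2.41 after camptothecin (intron minus exon -0.66 ± 0.12 SE; edgeR adjusted p = 0.00111), without overlap. In knockout cells the values were 1.99, 1.74 and 1.98 in DMSO and 2.32, 1.98 and 2.08 after camptothecin, which overlapped (-0.26 ± 0.12; edgeR adjusted p = 0.257). PRKDC gave 6.44, 6.15 and 5.24 exon reads per intron read in parent DMSO and 4.68, 4.51 and 4.78 in parent camptothecin libraries (0.31 ± 0.08; edgeR adjusted p = 0.0172). WEE1 gave 5.46, 5.27 and 6.08, then 7.15, 6.94 and 6.68 (-0.35 ± 0.10; edgeR adjusted p = 0.0232), without overlap. Without parent DMSO replicate 1 the WEE1 value was -0.25 (adjusted p = 0.0553), and ATR passed as higher (0.24, adjusted p = 0.00526, against 0.19 and 0.0776 with all libraries), so that 2 were called higher and 1 lower. In the fit without that library 1748 of 17731 genes were called higher and 1668 lower. The PRKDC call was lost in 3 and the WEE1 call in 5 of the 12 fits that left out 1 library.

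In knockout cells none of the 9 genes passed for intron minus exon, where 7.34% of genes were called in either direction, and 4 of the 9 had an unadjusted p below 0.05. PRKDC came closest there (0.28 ± 0.08 SE; edgeR adjusted p = 0.0603; 0.00932 without parent DMSO replicate 1), and WEE1 had -0.25 ± 0.10 (edgeR adjusted p = 0.178; 0.0339 without that library). Between the untreated genotypes none passed either, against 0.715% of genes, and 1 of the 9, ATRIP, had an unadjusted p below 0.05 (-0.41 ± 0.12; edgeR adjusted p = 0.167). Whether intron reads of these genes reflect transcription or the pace of splicing cannot be told apart with these libraries.

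**Figure D3:**
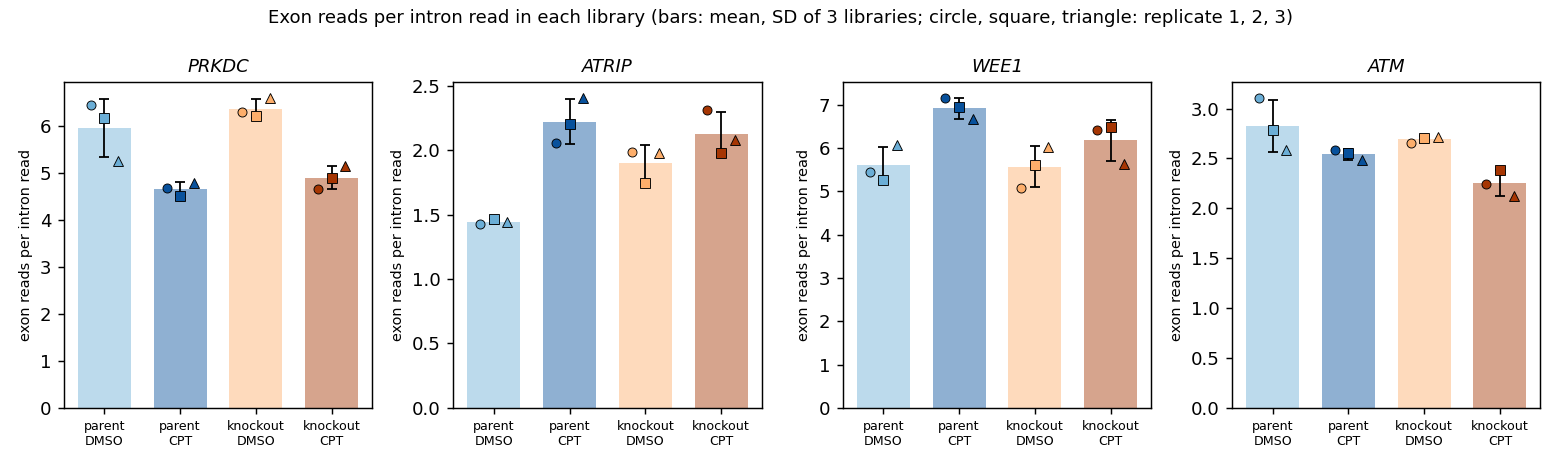
Exon reads per intron read (y axis, from 0) of PRKDC, ATRIP, WEE1 and ATM in the 4 groups (x axis, where CPT is camptothecin). Ratios are of unscaled counts, with the mean and SD of 3 libraries as bars and single libraries as symbols. In parent cells ATRIP goes from 1.43 to 1.47 in DMSO up to 2.06 to 2.41 after camptothecin, and PRKDC goes from 5.24 to 6.44 down to 4.51 to 4.78.

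The second question was whether the 2 genotypes responded differently. The difference of responses, knockout minus parent, passed for none of the 9 genes in exon reads, where 6.32% of all genes were called in either direction. By unadjusted p below 0.05 there were 2 of the 9, ATM (0.18 ± 0.08 SE; edgeR adjusted p = 0.229) and ATRIP (-0.31 ± 0.11; edgeR adjusted p = 0.0998), and DESeq2 called none. For the other 7 genes the difference ran from -0.09 to 0.27, with standard errors of 0.07 to 0.21. Parent DMSO replicate 1 decided this count: without it 2 of the 9 passed, ATM (0.18, edgeR adjusted p = 0.0332) and CHEK1 (-0.17, edgeR adjusted p = 0.05 after rounding). Calls over all genes rose as well in that fit, to 3503 of 24319, from 1487 of 23546 with all libraries. In intron reads none of the 9 passed, against 5.82% of genes, with 1 of the 9 at an unadjusted p below 0.05 and none called by DESeq2. A parent call beside an absent knockout call, as for ATR, ATRIP and CHEK1, is thus not shown to be a difference between the genotypes.

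The third question was how the untreated genotypes differed. In exon reads ATM, ATR and CHEK2 were lower in knockout DMSO than in parent DMSO libraries, where 7.44% of genes were called lower. None of the 9 passed as higher, against 8.26% of genes, with 1 of the 9 (ATRIP) at an unadjusted p below 0.05 and none called by DESeq2. Scaled by library size alone, ATRIP passed as higher (0.27, adjusted p = 0.0387) and the lower calls of ATM and ATR ended (adjusted p = 0.376 and 0.223). CHEK2 was 1.27-fold lower (-0.34 ± 0.08 SE; edgeR adjusted p = 0.00782), from 28.1 to 34.0 CPM in parent and 22.8 to 24.5 CPM in knockout libraries. ATR was 1.14-fold lower (-0.19 ± 0.05, edgeR adjusted p = 0.022) and ATM 1.13-fold lower (-0.17 ± 0.06, edgeR adjusted p = 0.0438). On exon reads that no other gene overlaps, the ATM call was lost (-0.12, edgeR adjusted p = 0.169). The libraries of CHEK2, ATR and ATM did not overlap between genotypes, nor did those of ATRIP, which did not pass in the main fit. In a fit of the 2 untreated groups alone, none of the 3 passed (edgeR adjusted p = 0.0544 for CHEK2, 0.096 for ATR and 0.136 for ATM). Among the 12 fits that left out 1 library, the ATM call was lost in 10, the ATR call in 3 and the CHEK2 call in 1. Without parent DMSO replicate 1 CHEK2 had -0.24, ATR -0.17 and ATM -0.18, and these calls were kept. In intron reads CHEK2 (-0.40 ± 0.08; edgeR adjusted p = 0.000791) and ATR (-0.24 ± 0.07; edgeR adjusted p = 0.015) were lower, against 6.43% of genes called lower. This comparison and the parent response share the 3 parent DMSO libraries, and with the other libraries side by side, CHEK2 went from 28.1 to 34.0 CPM to 22.0 to 22.5 CPM with camptothecin and to 22.8 to 24.5 CPM with the knockout label.

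Levels were compared between the 9 genes per kilobase of the exon length the tables give. In parent DMSO libraries PRKDC led with 49.6 ± 3.33 CPM per kilobase (SD, n = 3), followed by TOPBP1 (34.2 ± 4.53), CHEK1 (15.7 ± 1.63), RAD17 (12.9 ± 3.84), CHEK2 (9.67 ± 1.06), ATR (9.32 ± 0.167), ATM (9.19 ± 0.0649), WEE1 (7.89 ± 0.544) and ATRIP (5.51 ± 0.396). CHEK2, ATR and ATM lay within the spread of their libraries, as did CHEK1 beside RAD17 and RAD17 beside CHEK2. After camptothecin in parent cells ATM was at 5.75 ± 0.0825 and ATRIP at 7.92 ± 0.405 CPM per kilobase. On this scale ATM thus moved from above ATRIP to below it, with no overlap of their libraries in either group. The order of genes rests on the exon lengths used, 22317 bases for ATM and 3417 bases for ATRIP. Of the ATM exon length, 64.2% is annotated to no other gene. Other lengths, such as that of a single transcript, were not tried, so the crossing may depend on the length chosen. In knockout cells the values after camptothecin were 5.76 ± 0.304 for ATM and 7.22 ± 0.364 for ATRIP.

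The 9 genes span 19.0 to 187.1 kb, and the response of all genes differed by span. Among the 2729 tested genes of 100 kb or more the median exon change was -0.28 in parent cells (quartiles -0.60 and 0.01) and -0.17 in knockout cells (quartiles -0.41 and 0.06), while genes under 30 kb had medians of 0.07 and 0.06. ATM, ATR and PRKDC belong to the long class. ATM, at -0.68 and -0.50, lay below the lower quartile of its class in both genotypes, and ATR and PRKDC lay between the quartiles. In intron reads the long class had medians of -0.04 in parent and 0.05 in knockout cells, and ATM, at -0.56 and -0.34, was again below the lower quartiles of -0.29 and -0.16. In intron minus exon the long class had a median of 0.21 in parent cells, and the PRKDC value of 0.31 lay within its quartiles of -0.03 and 0.48. ATRIP (19.0 kb) and WEE1 (19.8 kb) lay below the lower quartile of -0.33 of genes under 30 kb. For the difference of responses in exon reads, the long class had a median of 0.13 (quartiles -0.06 and 0.31). ATM (0.18), ATR (0.06) and PRKDC (0.18) lay between those quartiles. The part of gene span in these values was not tested.

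**Figure D4:**
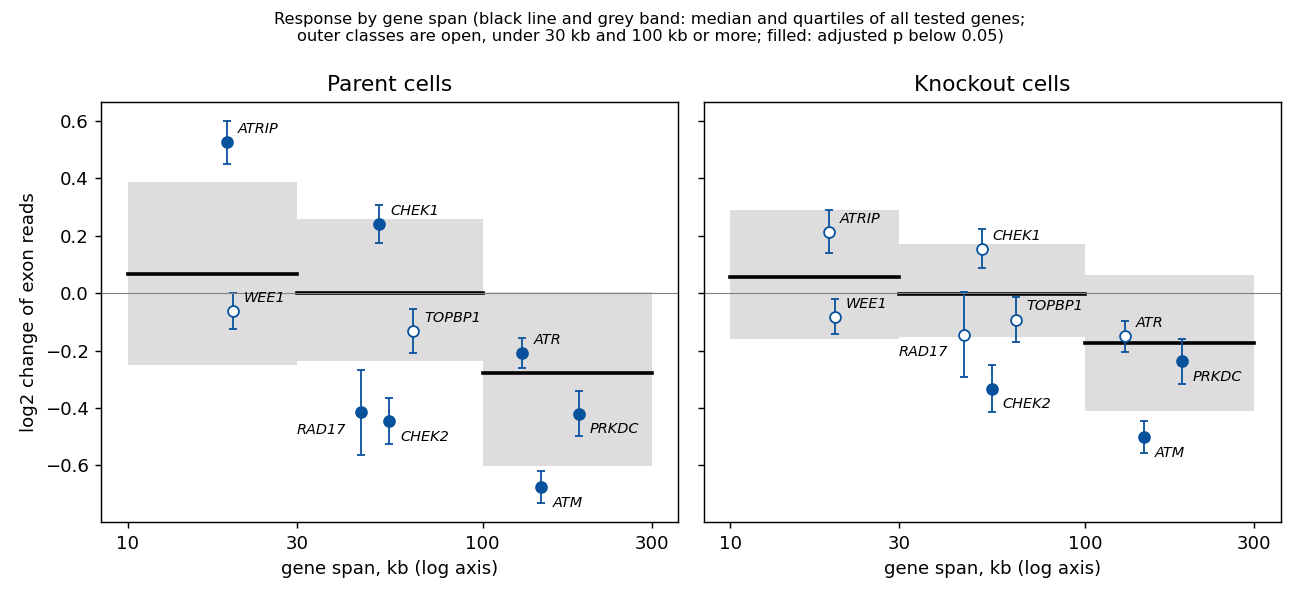
Log2 change of exon reads after camptothecin (y axis) against gene span in kb (log x axis) for the 9 genes, with standard errors, in parent (left) and knockout cells (right). Black lines and grey bands are the median and quartiles of all tested genes in 3 span classes, and filled points passed at an adjusted p below 0.05. ATM lies below the band of genes of 100 kb or more in both panels, and ATRIP lies above the band of genes under 30 kb in parent cells.

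Other genes of the pathway were read from a list of 51 genes, all of which passed the filter. In parent cells 15 rose, 15 fell and 21 did not pass, with a median change of -0.02, and in knockout cells 10 rose, 14 fell and 27 did not pass, with a median of -0.01. The shares of all genes called higher and lower were the 16.8% and 17.1% in parent cells and the 7.3% and 9.28% in knockout cells given above. Scaled by library size alone, 22 rose and 11 fell in parent cells and 18 rose and 7 fell in knockout cells. Of all 23546 genes, 5731 rose and 2791 fell on that scale in parent cells, and 4693 and 1274 in knockout cells. Without parent DMSO replicate 1 the counts were 21 and 15 in parent cells and 18 and 20 in knockout cells. Of 24319 genes in that fit, 4609 rose and 4224 fell in parent cells, and 3157 and 3483 in knockout cells. Of the 10 genes of the checkpoint clamp and its loader, 5 rose and none fell in parent cells; the largest rise was that of the clamp subunit HUS1, by 0.58 ± 0.07 SE (edgeR adjusted p = 6.23e-06). RAD17's partner subunits RFC2 (0.33), RFC3 (0.20) and RFC5 (0.32) rose, and RFC4, at -0.22, did not pass (edgeR adjusted p = 0.0808). Both Ku genes, whose products recruit the PRKDC kinase, fell in parent cells: XRCC5 by 0.71 ± 0.08 SE (edgeR adjusted p = 3.3e-06) and XRCC6 by 0.47 ± 0.08 (edgeR adjusted p = 0.00018). Of the MRN complex, RAD50 fell by 0.49 (edgeR adjusted p = 0.000627), and MRE11A and NBN did not pass. For the parent calls of HUS1, RFC2, RFC3, RFC5, XRCC6 and RAD50, values without parent DMSO replicate 1 were not obtained. The same holds for the parent calls of TIPIN and RUVBL1 below.

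Among the fork mediators of CHEK1, TIPIN rose by 0.42 in parent cells (edgeR adjusted p = 0.000938) and CLSPN by 0.40 in knockout cells (edgeR adjusted p = 0.0437), the latter call being lost in 9 of the 12 fits that left out 1 library. All 5 co-chaperones that fold ATM, ATR and PRKDC passed in parent cells, 3 as higher and 2 as lower: TELO2 rose 1.61-fold (edgeR adjusted p = 0.00169) and RUVBL1 fell 1.45-fold (edgeR adjusted p = 0.000133). The 9 genes that drive or restrain mitotic entry included the 3 largest changes of the list in both genotypes. PLK1, a kinase that opens mitosis, fell by 2.73 in parent and by 2.65 in knockout cells on the log2 scale. CCNB1, the cyclin partner of CDK1, fell from 191.2 ± 4.59 to 64.4 ± 2.13 CPM (SD, n = 3) in parent cells and from 194.9 ± 1.43 to 63.0 ± 5.71 CPM in knockout cells. CDK1, the target of WEE1, fell 1.61-fold in parent and 1.54-fold in knockout cells. PKMYT1, the WEE1-related kinase that also restrains CDK1, rose from 62.1 ± 7.52 to 123 ± 1.56 CPM in parent cells (edgeR adjusted p = 3.99e-08) and from 76.9 ± 2.97 to 119.3 ± 5.48 CPM in knockout cells (edgeR adjusted p = 1.56e-05). USP7, a ubiquitin protease that acts on CHEK1's partner claspin, fell 1.85-fold in parent cells (edgeR adjusted p = 9.32e-06) and 1.34-fold with the knockout (edgeR adjusted p = 0.0125). Without parent DMSO replicate 1, the parent change of USP7 was -0.70 against -0.89, and that of TELO2 0.50 against 0.69. Those of XRCC5 (-0.58), CDK1 (-0.62), PKMYT1 (0.89) and PLK1 (-2.64) were also smaller. Those of CCNB1 (-1.58) and CDC25A (0.70) were larger, and all these calls were kept.

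The difference of responses passed for 5 of the 51 pathway genes, 2 higher and 3 lower in knockout cells, where 6.32% of all genes (1487 of 23546) were called. The fit without parent DMSO replicate 1 called 14 of the 51, and 3503 of 24319 genes in all. HUS1, the clamp subunit, went from 17.4 ± 0.894 to 26.0 ± 1.08 CPM in parent cells and from 19.1 ± 0.738 to 19.2 ± 0.60 CPM in knockout cells (SD, n = 3; difference -0.58 ± 0.10 SE; edgeR adjusted p = 0.00175). This call was kept without each of the 12 libraries in turn. Between the untreated genotypes 5 of the 51 passed, 2 higher and 3 lower in knockout cells, where 8.26% of all genes were called higher and 7.44% lower. The fit without parent DMSO replicate 1 called 11 of the 51, and of 24319 genes 2331 as higher and 1996 as lower. The phosphatase gene CDC25B was 1.32-fold higher in knockout DMSO libraries (edgeR adjusted p = 0.00317). CDC7, RFC5 and PKMYT1 also passed (-0.41, -0.25 and 0.31; edgeR adjusted p = 0.038, 0.0343 and 0.0102), of which the CDC7 call was kept in 3 and the RFC5 call lost in 5 of the 12 fits that left out 1 library. Without parent DMSO replicate 1 CDC7 had -0.17 and RFC5 -0.16.

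For each of the 9 genes, the genes with the most similar pattern were those with the highest Pearson correlation of log2 CPM over the 12 libraries, among 10331 genes whose mean reached 10 CPM. ATM was most like PAG1 (r = 0.996) and ETV6 (r = 0.994), PRKDC most like ZMIZ1 (r = 0.985) and CMIP (r = 0.981), and ATRIP most like RHBDD3 (r = 0.984) and ACOT2 (r = 0.982). ATR was most like IGHV1OR15-1 (r = 0.983) and LGALS9 (r = 0.981), and TOPBP1 most like MGA (r = 0.9585) and ZC3H13 (r = 0.957). CHEK1 was most like RNF8 (r = 0.983), which is itself a ubiquitin ligase of the ATM pathway, and C11orf82 (r = 0.975). CHEK2 was most like CDK5RAP3 (r = 0.987) and Z82188.1 (r = 0.982). RAD17 was most like FKBP3 (r = 0.995) and KRT222 (r = 0.991), and WEE1 had the weakest best match (STIM1, r = 0.918). Between the 9 genes themselves, ATM and ATRIP ran in opposite directions (r = -0.93), as did PRKDC and CHEK1 (r = -0.889), and ATR and CHEK2 ran together (r = 0.952). These correlations are descriptions over 12 libraries that share the treatment contrast, the scaling and 1 library that stands apart. That library was the highest of its group for RAD17, TOPBP1, CHEK1, CHEK2 and ATR, and the lowest for ATM, PRKDC, ATRIP and WEE1.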

How the data were processed

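The deposited tables hold whole-number counts of reads per gene, exon and intron, made by the authors; per the submitters' processing notes, the build was hg19 and the tools included STAR 2.5.4a, Picard 2.9.2, Trimmomatic 0.39 and Trim Galore 0.6.2. How reads were counted, on which annotation and with or without strand is not stated in the labels, so overlapping and antisense genes cannot be told apart. Exon plus intron counts sum to 102.7% to 102.9% of gene counts, so some reads were counted in both.

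Exon counts, intron counts and both jointly (a library block and an interaction) were each fitted over all 12 libraries with edgeR 4.0.16 in R 4.3.3: filterByExpr, TMM, robust quasi-likelihood, Benjamini-Hochberg adjustment over all genes, calls below 0.05. SE restates the test's F value. The script was tested on simulated data. The 9 genes, the pathway list and the tests were chosen with earlier results of these data known. Named pathway genes are those called with the largest changes (up to 8 per comparison), plus examples of each role chosen after their values were seen; up to 2 like-pattern genes per member were taken by correlation. Alternatives were other scales, DESeq2 1.42.0, no filter, fewer groups, other read classes, a replicate block and leaving out each library. The value of 1 gene of the pathway list is not reported here.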

Additional observations from a re-analysis of the deposited data

Results flagged for a closer look

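For 5 pathway genes the response to camptothecin differed between the genotypes by the test of the difference itself (knockout minus parent, edgeR). HUS1 had -0.58, as given above. The phosphatase gene CDC25C had -0.67 ± 0.13 SE (adjusted p = 0.0049): it went from 19.2 ± 2.51 to 21.5 ± 0.334 CPM in parent cells and from 16.7 ± 0.278 to 11.7 ± 1.14 CPM in knockout cells (SD, n = 3), and on exon reads that no other gene overlaps the difference was -0.36 (adjusted p = 0.136). CDC25A, the phosphatase that CHEK1 marks for destruction, had -0.36 ± 0.09 (adjusted p = 0.0206), with 114.8 ± 4.5 to 181.6 ± 2.63 CPM in parent and 120.2 ± 1.63 to 148.4 ± 11.4 CPM in knockout cells. RPA1, the large subunit of the protein that coats single-stranded DNA, had 0.38 ± 0.10 (adjusted p = 0.0252), with 134.5 ± 7.39 to 92.9 ± 2.14 CPM in parent and 137.7 ± 6.84 to 124.1 ± 10.7 CPM in knockout cells. The clamp loader subunit RFC4 had 0.46 ± 0.13 (adjusted p = 0.047), with 71.7 ± 12.8 to 61.7 ± 0.873 CPM in parent and 69.7 ± 0.784 to 82.4 ± 5.45 CPM in knockout cells. Among the 12 fits that left out 1 library, the CDC25A call was lost in 9, the RFC4 call in 8 and the RPA1 call in 5. Without parent DMSO replicate 1 RFC4 had 0.30.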

How the results depend on the processing

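The tests measure the spread of 3 libraries a group, and the lowest count of any of the 9 genes in a library was 864 exon reads and 506 intron reads; how depth limits the calls was not tested. Over the alternatives, 1299 values of the 9 genes kept their direction and side of the threshold, 75 lost a call, 31 gained one and 44 changed sign; of the pathway values, 460 kept it and 55 lost a call. The replicate numbers did not pair libraries (correlations of -0.032 to 0.043 between same-numbered libraries), and with the number as a replicate block 7931, 3723, 1348 and 3530 genes were called in exon reads (parent, knockout, difference, untreated) against 7978, 3902, 1487 and 3697; the block ended the untreated ATM call (-0.17, adjusted p = 0.0591) and brought the knockout CHEK1 intron change past the threshold (0.30, adjusted p = 0.028).

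Library size alone shifted the median of all genes to 0.14 in parent and 0.17 in knockout cells, and the share of exon calls that were higher rose from 49.6% to 67.2% in parent, from 44% to 78.6% in knockout, from 29.2% to 46.3% for the difference and from 52.6% to 72.7% untreated (intron reads: 45.9% to 69.5%, 46.4% to 70.4% and 55.9% to 73.6% for parent, knockout and untreated). It gave 5967 genes in knockout cells, 9 pathway genes for the difference and 1 of the 9 genes for untreated intron reads. It turned uncalled changes positive: in exon reads WEE1 in parent (0.059), ATR (0.0028), TOPBP1 (0.063), RAD17 (0.0085) and WEE1 (0.072) in knockout, WEE1 in the difference (0.014), and TOPBP1 (0.077) and CHEK1 (0.014) untreated; in intron reads ATR (0.11), PRKDC (0.016), ATRIP (0.0063) and RAD17 (0.011) in parent, ATR (0.085) and ATRIP (0.059) in knockout, and PRKDC (0.049) untreated. On the exon scale intron reads gave ATR 0.018 in parent and ATR 0.094 and ATRIP 0.059 in knockout cells, 0 of the 9 genes called in knockout (higher share of all genes 69%), 603 genes for the difference and 1 of the 9 untreated; intron minus exon gave 2053, 848 and 76 genes (parent, knockout, untreated) and 1 of the 9 in knockout, with a higher share of 88.4% against 71.4%. DESeq2 gave 5 of the 9 genes in knockout exon reads, 10 pathway genes for the difference and 0.0022 for ATR in knockout intron reads. Without a filter on low counts 1 of the 9 and 9 pathway genes were called untreated, and 9 pathway genes for the difference (higher share 40.4%). With only the groups compared, 5932 genes and 6 of the 9 were called in knockout, and 2104 genes (62.5% higher), 0 of the 9 and 2 pathway genes untreated; this fit cannot give the difference of responses, which needs all 4 groups. The cause of these changes was not tested.

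Leaving out each library in turn, exon counts ran from 2519 to 6640 genes, 2 to 6 of the 9 and 13 to 38 pathway genes in knockout; from 903 to 3503, 0 to 2 and 2 to 14 for the difference; and from 2385 to 4327, 0 to 3 and 2 to 11 untreated. Intron counts ran from 2199 to 4840 genes and 1 to 4 of the 9 in knockout, from 690 to 2057 genes for the difference, and from 1 to 2 of the 9 untreated. Intron minus exon counts ran from 2044 to 3439 genes and 1 to 4 of the 9 in parent, from 725 to 2483 and 0 to 2 in knockout, and from 54 to 221 genes untreated. Uncalled values that crossed 0 were, in exon reads, the difference for TOPBP1 (-0.072 to 0.11), RAD17 (-0.0057 to 0.40) and WEE1 (-0.041 to 0.041) and the untreated value of TOPBP1 (-0.088 to 0.095), RAD17 (-0.30 to 0.11) and CHEK1 (-0.15 to 0.0057). In intron reads they were ATR (-0.065 to 0.038) and RAD17 (-0.23 to 0.0035) in parent, ATR (-0.039 to 0.021), ATRIP (-0.14 to 0.042) and TOPBP1 (-0.0081 to 0.059) in knockout, and PRKDC (-0.061 to 0.030) untreated. In intron minus exon they were CHEK2 in parent (-0.10 to 0.071) and RAD17 (-0.010 to 0.071) and CHEK2 (-0.019 to 0.089) in knockout. The highest counts in knockout and difference came without parent DMSO replicate 1.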
